A study of Mus musculus with 16 samples.

Results

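Ubiquitin-conjugating E2 enzymes were described as the genes whose symbol starts with Ube2, in mouse two-cell embryos measured on 16 one-colour arrays. Of the 34945 probe sets that the platform annotation gives 1 gene symbol, 79 carried such a symbol, for 32 genes of the 18193 named in this way. They were chosen by symbol and not by their values. Ube2 genes with no probe set of 1 symbol here, such as Ube2m and Ube2l3, are not among the members, and another Ube2 gene was not analysed here. A test was run on 64 of the probe sets, for 30 of the genes, and the other 15 probe sets, with the genes Ube2d2b and Ube2l6, were too dim on most arrays. Not every symbol stands for an E2: Ube2cbp encodes a protein that binds the E2 Ube2c, and Ube2d-ps is a pseudogene.

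The embryos fell into 4 groups of 4 arrays. In BBB embryos the maternal pronucleus, the paternal pronucleus and the ooplasm were all of the inbred strain B6. BCB embryos carried a maternal pronucleus of the strain C3H, and the paternal pronucleus and the ooplasm were B6, so that both kinds shared the B6 cytoplasm and the B6 paternal genome. Both kinds were arrayed without treatment and with α-amanitin (α-amantin in the labels), an inhibitor of RNA polymerase II. The dose, its duration and the age of the mothers were not given in the sources used here. Per the labels, a Picopure kit was used for the total RNA and an ENZO kit for the biotin label. Nothing says which embryos were pooled for an array or came from separate matings, so p-values measure only the spread between these samples, which may be technical.

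Ubiquitin is passed along a chain of enzymes: an E1 activates it, an E2 carries it on its active cysteine, and an E3 ligase brings the loaded E2 to a substrate. The E2 often decides which chain is built, and the chain decides the fate of the substrate: Lys48 and Lys11 chains mark proteins for the proteasome, and Lys63 chains serve signalling and DNA damage tolerance. Some E2 family members carry other modifiers, such as NEDD8 or ISG15. In the mouse two-cell embryo the genome is activated while maternal mRNA and protein inherited from the oocyte are cleared, so that a transcript can be left from the oocyte or made anew. Amanitin blocks the second source and not the first.

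RefSeq promoter windows (GRCm38.p6) matched 26 of the 32 genes by symbol, and Ube2d2a, Ube2e3, Ube2g2, Ube2o, Ube2v2 and Ube2w had none. Shown here are the 200 bases before the annotated start, 5′ to 3′ on the gene's strand, for the 3 genes with a window that fell most with amanitin and the 3 that rose most on the deposited scale, since a block of transcription bears on promoters. The windows of the genes that fell are at chr6:30304540-30304739 on the minus strand for Ube2h, chr1:134962365-134962564 on the plus strand for Ube2t and chr4:155943613-155943812 on the plus strand for Ube2j2. Those of the genes that rose are at chr10:71285263-71285462 on the minus strand for Ube2d1, chr11:52000787-52000986 on the minus strand for Ube2b and chr4:33031180-33031379 on the plus strand for Ube2j1. Capitals mark every match, on either strand, to the CCAAT box (CCAAT), the GC box (GGGCGG), the TATA box (TATAAA), the cell cycle CHR element (TTTGAA), the ETS core (CCGGAAG), the CRE half-site (TGACG) and the E-box (CACGTG).
Ube2h: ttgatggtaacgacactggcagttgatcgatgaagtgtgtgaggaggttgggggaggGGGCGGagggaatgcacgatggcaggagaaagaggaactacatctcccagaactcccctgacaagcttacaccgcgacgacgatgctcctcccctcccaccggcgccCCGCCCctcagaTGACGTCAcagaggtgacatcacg
Ube2t: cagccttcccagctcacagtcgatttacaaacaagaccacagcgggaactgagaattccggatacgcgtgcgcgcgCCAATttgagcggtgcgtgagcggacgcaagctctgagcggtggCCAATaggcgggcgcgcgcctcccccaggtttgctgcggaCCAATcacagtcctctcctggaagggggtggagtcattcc
Ube2j2: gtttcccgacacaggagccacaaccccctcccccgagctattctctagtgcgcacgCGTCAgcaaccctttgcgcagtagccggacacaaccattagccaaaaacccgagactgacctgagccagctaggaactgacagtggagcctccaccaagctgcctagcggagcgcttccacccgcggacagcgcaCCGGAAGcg
Ube2d1: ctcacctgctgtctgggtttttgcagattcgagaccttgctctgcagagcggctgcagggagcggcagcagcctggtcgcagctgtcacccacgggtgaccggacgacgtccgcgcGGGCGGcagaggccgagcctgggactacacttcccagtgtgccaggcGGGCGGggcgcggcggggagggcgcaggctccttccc
Ube2b: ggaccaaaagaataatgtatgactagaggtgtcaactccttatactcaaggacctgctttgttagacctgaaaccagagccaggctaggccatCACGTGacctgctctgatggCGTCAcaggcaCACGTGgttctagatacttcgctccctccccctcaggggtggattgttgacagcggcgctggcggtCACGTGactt
Ube2j1: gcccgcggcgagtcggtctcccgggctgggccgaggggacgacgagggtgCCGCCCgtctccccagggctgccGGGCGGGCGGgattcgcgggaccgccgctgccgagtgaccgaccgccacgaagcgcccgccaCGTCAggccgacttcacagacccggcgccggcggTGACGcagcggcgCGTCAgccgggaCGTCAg

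Ube2t held 3 CCAAT boxes, at 124, 80 and 40 bases before the start, and Ube2b held 3 E-boxes, at 107, 76 and 10. Ube2h held 2 overlapping CRE half-sites, 1 on each strand, and Ube2j1 held 2 GC boxes that overlap each other. Over the 250 bases before the start, a GC box was found in 65.4% of the 26 member windows and in 32.7% of all 32851 windows, in 10 of the 14 genes called higher in BBB with amanitin and in 4 of the 7 called lower. The CCAAT box was in 26.9% against 33.8%, the CRE half-site in 30.8% against 17.8%, the ETS core in 19.2% against 6.91% and the CHR element in 15.4% against 16%. The TATA box was in 3.85%, which is Ube2s alone, against 12.4%, and the E-box in 7.69%, which is Ube2b and Ube2q1, against 6.02%. Member windows also held more G and C, with a median of 68% against 52.4% over all windows. The sets of windows were built differently. Members had 1 window per gene, at the outermost start. All windows could include several of the same gene and were not limited to the genes tested. These matches are a description and not sites of binding, and whether their shares are particular to E2s was not tested.

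The deposited intensities are linear and were set to a common scale by the authors: the mean without the top and bottom 2% was 150 on all 16 arrays. The 9 hybridization control probe sets were higher on arrays with amanitin, by 0.55 in BBB and 0.81 in BCB on the log2 scale, and the 12 poly-A control probe sets by 1.86 and 1.88 (exact two-sided permutation test, p = 0.0286 each, the smallest that 4 against 4 arrays allow). A fall on the deposited scale is therefore larger on either control scale, and a rise is smaller or turns into a fall, so the values on both scales are given beside each gene named as called higher. Over all genes tested, the median change with amanitin was 0.11 in BBB and 0.17 in BCB on the deposited scale, -0.25 and -0.37 on the hybridization scale and -1.18 and -1.13 on the poly-A scale. In bulk RNA, fewer transcripts per embryo and fewer cells cannot be told apart. The summed intensity of the two-cell markers Zfp352, Eif1a, Hspa1b and Dppa4 was 7696 to 9071.5 on untreated and 259.7 to 449.4 on treated arrays, as a check of the labels, and that of 7 of 8 listed oocyte markers was 6521 to 7626 and 14526 to 17121. The sum over 9 of 10 listed cumulus and granulosa markers was 89.2 to 130.5 untreated and 162.7 to 260.7 with amanitin, and that over 7 sperm markers 48.2 to 107.5 and 86.5 to 134.3. No listed marker had a mean of 0, Amh and Smcp were among the dimmest, and the part of such cells in any rise was not tested. BBB arrays 3 and 4 correlated more with the treated arrays (0.807 and 0.8 across genes) than BBB arrays 1 and 2 (0.772 and 0.775), so the counts in BBB are also given without them. The untreated BCB arrays 1 to 4 stood at 0.793, 0.781, 0.778 and 0.796, and no pair of them was left out.

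With amanitin, the E2 transcripts of two-cell embryos split into a group that fell and a group that rose on the deposited scale, and the same 9 genes fell in BBB and BCB embryos. These are 30% of the 30 tested genes, close to the 33.1% of all genes called lower in BBB and 31.9% in BCB. How many of all genes were lower in both kinds was not counted. The largest falls were those of Ube2o, Ube2h, Ube2j2, Ube2t, Ube2v2 and Ube2v1, with log2 changes from -1.84 to -3.56 in BBB and from -1.86 to -3.58 in BCB. The largest rises on the deposited scale were those of Ube2d1, Ube2b, Ube2j1 and Ube2d-ps. Of these, Ube2d1 stayed higher on the poly-A scale, and the others lay between -0.17 and 0.054 there. The rises of Ube2b and Ube2d-ps are those of the probe set with the highest mean, and another probe set of each was called lower in both kinds.

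In BBB, 17 of the 30 tested genes were called higher with amanitin (limma, adjusted p under 0.05 by the Benjamini-Hochberg method), where 37.1% of all genes tested were called higher, and 9 were called lower, where 33.1% were. In BCB, 16 were called higher, beside 39.9% of all genes, and 9 lower, beside 31.9%. The median change of the 30 genes was 0.45 in BBB and 0.37 in BCB, against 0.11 and 0.17 over all genes. This excess did not hold on every scale. After quantile normalization the medians were 0.069 in BBB and 0.19 in BCB, against 0.22 and 0.23 over all genes. On the hybridization scale they were -0.093 and -0.38, against -0.25 and -0.37. On the poly-A scale they were -1.35 and -1.42, against -1.18 and -1.13. Changes of at least 2-fold were called in 7 genes upward and 7 downward in BBB, beside 15.9% and 21.9% of all genes, and in 7 and 8 in BCB, beside 16.2% and 21.1%. The treated arrays did not overlap the untreated ones in 27 of the 30 genes in BBB and 23 in BCB, where 64.6% and 65.3% of all genes did not overlap. The 9 genes lower in BBB were the 9 lower in BCB, and 16 were higher in both, while Ube2g2 was called higher in BBB and not in BCB, and Ube2e1, Ube2e3, Ube2ql1 and Ube2z were called in neither. Some of these calls moved with the setting: after quantile normalization Ube2g2 was called higher in BCB (0.24, adjusted p = 0.0291), Ube2e3 lower in both kinds (-0.59 in each, adjusted p = 7.92e-08 and 7.14e-08) and Ube2e1 lower in BCB (-0.30, adjusted p = 0.0038). On both control scales Ube2e1, Ube2e3 and Ube2z were called lower in both kinds. BBB and BCB share no arrays, but the spread of each probe set was estimated over all 16 arrays, so the calls in them are not fully separate. On the hybridization scale the calls were 9 higher and 12 lower in BBB, beside 21% and 43.7% of all genes, and 6 and 17 in BCB, beside 15% and 48.4%. On the poly-A scale they were 1 and 24 in BBB, beside 1.01% and 82.6%, and 1 and 23 in BCB, beside 0.825% and 81.3%, so the count of lower genes there is close to the share over all genes. Without BBB arrays 3 and 4, 16 genes were called higher and 9 lower in BBB, beside 5306 and 4714 over all genes (5672 and 5062 with those arrays).

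**Figure D1:**
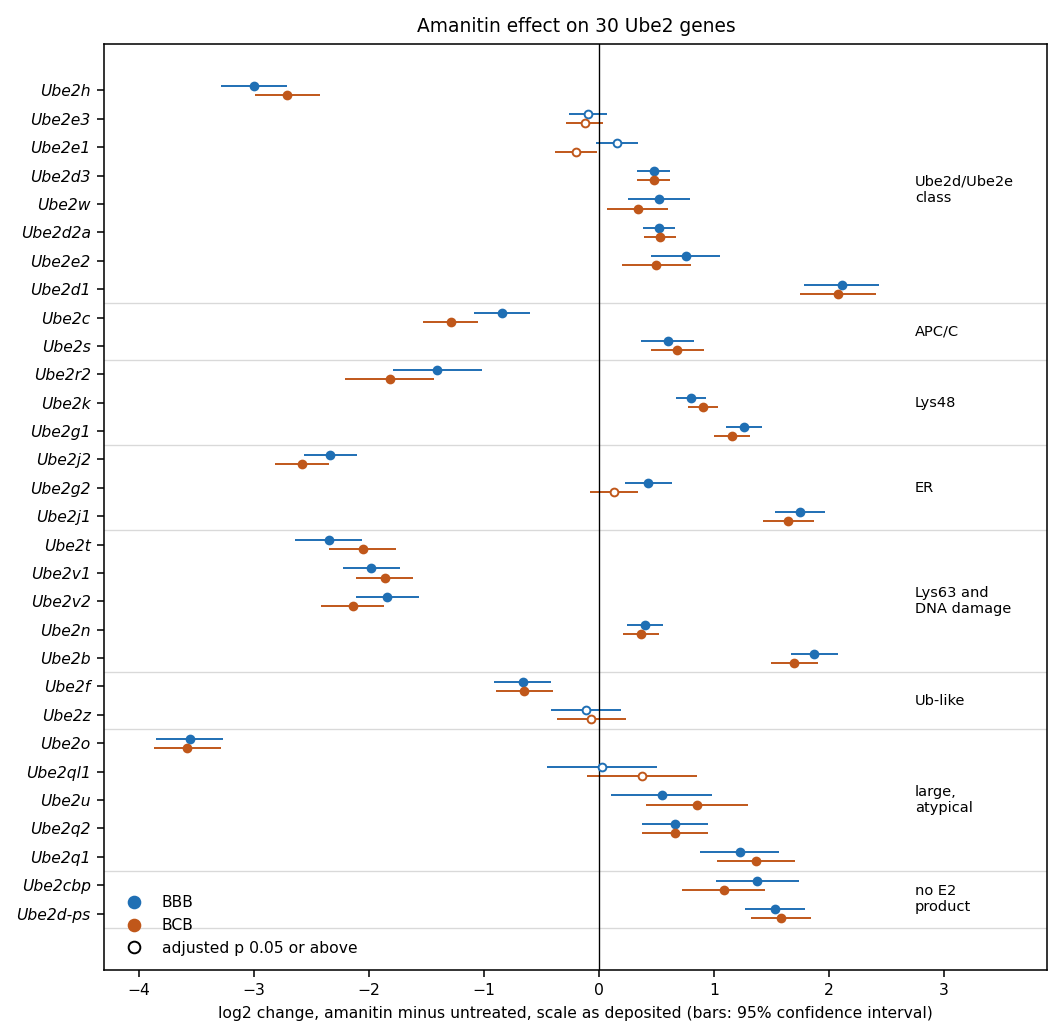
The log2 change with amanitin on the deposited scale (x axis) is plotted for the 30 tested Ube2 genes, grouped by role, as points for BBB (blue) and BCB (orange) with 95% confidence intervals; open points did not pass the adjusted p of 0.05. Within most roles genes lie on both sides of 0, from -3.56 for Ube2o to 2.11 for Ube2d1 in BBB; on the hybridization and poly-A scales the falls are larger and most rises are smaller or turn to falls.

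**Figure D2:**
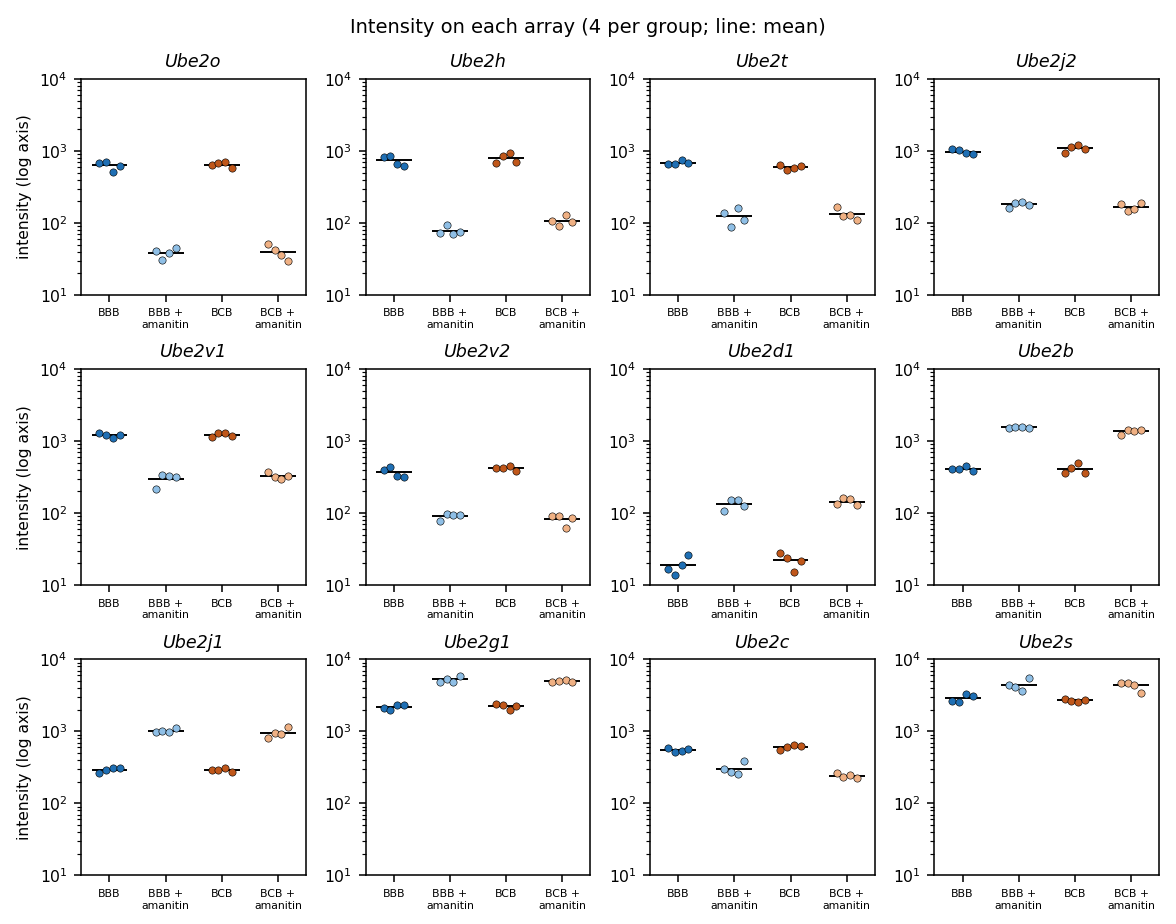
Each point is the deposited intensity of a gene on 1 array (y axis, log), for the 4 arrays of each group, with a line at the group mean. The 12 genes were drawn from called genes whose groups do not overlap or from those always described. In all of them the treated arrays stand apart from the untreated arrays of the same kind. On the poly-A scale the rises of Ube2g1 and Ube2s turn to called falls. Ube2j1 and Ube2b are not called there, at -0.054 and 0.054 in BBB and -0.17 and -0.14 in BCB.

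Among the general E2s of the Ube2d and Ube2e class, which work with many RING and HECT ligases, Ube2d1 rose most and Ube2h, grouped with them here, fell most. Of 8 tested genes of the group, 5 were called higher and 1 lower in both kinds, with medians of 0.5 in BBB and 0.41 in BCB. Ube2d1 was near the floor of the arrays in untreated embryos, at 16.6, 13.8, 18.9 and 25.8 on the 4 BBB arrays and 27.6, 24.1, 15.4 and 21.6 on the 4 BCB arrays. With amanitin it read 107, 153, 153 and 125 in BBB and 132, 163, 155 and 129 in BCB. Every treated array lay above every untreated one. The change was 2.11 ± 0.16 (SE) in BBB and 2.08 ± 0.16 in BCB (adjusted p = 2.78e-11 and 3.78e-11), and 1.72 in BBB and 1.48 in BCB on the hybridization scale, and 0.76 and 0.64 on the poly-A scale. It was the 1 gene of the family still called higher on both control scales in both kinds.

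Its close relatives Ube2d2a and Ube2d3 were among the brightest members and moved little. Ube2d2a averaged 5731 ± 533 (SD, n = 4) in BBB and 8245 ± 633 with amanitin, a change of 0.53 ± 0.067, and 0.53 in BCB, which turned to -0.10 and -0.11 after quantile normalization and to -0.028 and -0.28 on the hybridization scale and -1.33 and -1.34 on the poly-A scale. Ube2d3 rose by 0.48 ± 0.069 in BBB and 0.48 ± 0.069 in BCB on the deposited scale, which turned to -0.11 and -0.088 after quantile normalization and to -0.077 and -0.33 on the hybridization scale and -1.38 and -1.39 on the poly-A scale. The coding sequences of these genes are close, so a probe set may read more than 1 of them. Ube2e2 was dim, at 20 ± 1.72 in BBB and 45.2 ± 7.77 with amanitin; its change was 0.76 ± 0.15 in BBB and 0.50 ± 0.15 in BCB, and 0.40 and -0.018 on the hybridization scale and -0.46 and -0.69 on the poly-A scale. The related Ube2e3 and Ube2e1 did not pass the test, with changes of -0.093 and 0.16 in BBB and -0.12 and -0.20 in BCB. Ube2w, which attaches ubiquitin to the N-terminus of substrates, changed by 0.52 ± 0.13 in BBB and 0.34 ± 0.13 in BCB, and by -0.01 and -0.44 on the hybridization scale and -1.27 and -1.45 on the poly-A scale; in BCB its groups overlapped and its call was lost without any 1 of 4 arrays (BCB 2 and 4 and treated BCB 2 and 4). Without one of them the change in BCB was 0.21 to 0.32, with adjusted p from 0.0518 to 0.131. Averaged over its probe sets, the change in BCB was 0.088 and did not pass (adjusted p = 0.37).

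Ube2h, the E2 of the CTLH ligase complex and known from red cell maturation, read 832, 845, 649 and 622 in BBB and 71.8, 93.1, 70.9 and 74.7 with amanitin. In BCB it read 683, 835, 929 and 702 and 105, 90.8, 129.5 and 102. The treated arrays all lay far below the untreated ones in both kinds. It fell, by a log2 change of -3.00 ± 0.14 in BBB and -2.71 ± 0.14 in BCB (adjusted p = 4.47e-15 and 2.86e-14). This rests on 1 of its 3 tested probe sets: the other two are dimmer, and their changes of -0.38 and 0.20 in BBB did not pass.

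The pair of E2s that serve the anaphase-promoting complex, the ligase that ends mitosis, moved in opposite directions on the deposited scale. Ube2c starts ubiquitin chains on substrates of the complex, and Ube2s extends them as Lys11 chains. Ube2c read 585, 521, 530.4 and 562 in BBB and 297, 269.7, 255 and 391 with amanitin, and 559.8, 609, 643 and 632 in BCB and 262, 229.9, 246 and 226 with amanitin. The groups did not overlap, and treated BBB array 4, at 391, was the highest treated array. Ube2c fell, by a log2 change of -0.84 ± 0.12 in BBB and -1.29 ± 0.12 in BCB (adjusted p = 8.35e-07 and 7.88e-10), and the difference between the kinds did not pass (interaction -0.45 ± 0.17, adjusted p = 0.403). Ube2s read 2648, 2547, 3276 and 3146 in BBB and 4458, 4087, 3679 and 5509.8 with amanitin, and 2803, 2645, 2550 and 2751 in BCB and 4769.9, 4749.6, 4470 and 3436 with amanitin. Its groups did not overlap either, although treated BCB array 4 came near the untreated arrays. The change was 0.60 ± 0.11 in BBB and 0.68 ± 0.11 in BCB (adjusted p = 5.04e-05 and 9.65e-06), and 0.048 in BBB and -0.12 in BCB on the hybridization scale, and -1.25 and -1.19 on the poly-A scale. After quantile normalization its changes of 0.05 and 0.18 did not pass (adjusted p = 0.682 and 0.128). Its probe set is of the kind that may read transcripts of several genes.

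Of 3 E2s known for Lys48 chains and degradation, Ube2g1 and Ube2k were called higher and Ube2r2 lower in both kinds, with a median of 0.8 in BBB and 0.91 in BCB. Ube2g1, which extends chains on substrates of cullin-RING ligases, read 2090.1, 1995, 2328 and 2348 in BBB and 4881, 5376, 4896 and 5949 with amanitin, and 2374, 2303, 2012 and 2274 in BCB and 4895, 5034, 5254 and 4888 with amanitin. All treated arrays lay above all untreated ones, with a wide gap between them. Its change was 1.26 ± 0.076 and 1.16 ± 0.076 (adjusted p = 6e-13 and 2.77e-12), and 0.71 in BBB and 0.36 in BCB on the hybridization scale, and -0.59 and -0.71 on the poly-A scale. Ube2k, which builds Lys48 chains by itself in the test tube, averaged 3703 ± 308 in BBB and 6448 ± 215 with amanitin; it changed by 0.80 ± 0.063 in BBB and 0.91 ± 0.063 in BCB, and by 0.25 and 0.10 on the hybridization scale and -1.05 and -0.96 on the poly-A scale. Ube2r2, a relative of Cdc34 that works with SCF ligases, read 181, 240, 111 and 142 in BBB and 40.2, 54.3, 57.4 and 54.7 with amanitin, and 155, 193, 213 and 167 in BCB and 35.8, 56.2, 29.6 and 40.6 with amanitin. Untreated BBB arrays 3 and 4 were the lowest untreated arrays, and every treated array lay below them. Ube2r2 fell, by a log2 change of -1.41 ± 0.19 in BBB and -1.82 ± 0.19 in BCB (adjusted p = 5.01e-07 and 7.74e-09).

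The membrane-anchored E2s of the endoplasmic reticulum, Ube2j1 and Ube2j2, which act on misfolded proteins, moved far apart. Ube2j1 read 261, 294, 313 and 312 in BBB and 987, 1022, 975 and 1131 with amanitin, and 292, 292, 311 and 273 in BCB and 821, 938, 908 and 1158 with amanitin. Ube2j2 read 1055, 1027, 922 and 897 in BBB and 160.3, 186, 197 and 179 with amanitin, and 934, 1130, 1217 and 1056 in BCB and 181, 145, 157 and 188 with amanitin. Neither gene's treated and untreated arrays overlapped, Ube2j1 being high and Ube2j2 low on every treated array. Ube2j1 changed by 1.75 ± 0.11 and 1.65 ± 0.11 (adjusted p = 6.43e-13 and 1.95e-12), and by 1.21 and 0.87 on the hybridization scale and -0.054 and -0.17 on the poly-A scale. Its second, dimmer probe set rose less on the deposited scale, by 0.51 in BBB and 0.54 in BCB. Ube2j2 fell, by a log2 change of -2.33 ± 0.11 in BBB and -2.58 ± 0.11 in BCB (adjusted p = 8.91e-15 and 1.42e-15). Ube2g2, the soluble E2 of the same pathway, averaged 528 ± 27.1 in BBB and 721 ± 84.9 with amanitin; it was called higher in BBB, at 0.43 ± 0.10, and its 0.13 ± 0.10 in BCB did not pass; the values were -0.11 and -0.66 on the hybridization scale and -1.38 and -1.69 on the poly-A scale. The difference between the kinds was -0.30 ± 0.14 and did not pass (adjusted p = 0.573).

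Lys63 chains are built by a dimer of the active E2 Ube2n with 1 of the inactive variants Ube2v1 and Ube2v2, and the transcripts of the variants fell while that of Ube2n did not fall on the deposited scale. Of the 5 tested E2s of Lys63 chains and DNA damage, 3 were called lower and 2 higher in both kinds, with a median of -1.84 in BBB and -1.86 in BCB. Ube2v1, known from NF-kappaB signalling, read 1300.4, 1228, 1095 and 1218 in BBB and 214, 335, 332 and 315 with amanitin, and 1155, 1286, 1286 and 1181 in BCB and 373, 315, 296 and 324 with amanitin. Ube2v2, known from DNA damage tolerance, read 393, 431, 326 and 321 in BBB and 77.5, 97.1, 94.2 and 93.7 with amanitin, and 423, 417, 454 and 379 in BCB and 92.6, 90.8, 62.7 and 86.3 with amanitin. The treated arrays of both genes lay below all untreated ones. Ube2v1 fell, with -1.98 ± 0.12 and -1.86 ± 0.12 in BBB and BCB (adjusted p = 5.81e-13 and 1.83e-12), and Ube2v2 fell, with -1.84 ± 0.13 and -2.14 ± 0.13 (adjusted p = 1.46e-11 and 1.04e-12). Ube2n itself read 1183, 1190.1, 1293 and 1285 in BBB and 1686, 1681, 1648 and 1532 with amanitin, and 1127, 1261, 1294 and 1189.6 in BCB and 1539.7, 1626, 1508 and 1622 with amanitin. These groups did not overlap, although the gap between them was narrow. The change of Ube2n was 0.40 ± 0.075 and 0.37 ± 0.075 (adjusted p = 5.46e-05 and 0.000144), and -0.15 in BBB and -0.43 in BCB on the hybridization scale, and -1.44 and -1.49 on the poly-A scale. Averaged over its 2 probe sets, the change was 0.18 and 0.25, and no longer passed (adjusted p = 0.223 and 0.0851).

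Ube2b, the Rad6 homologue that works with Rad18 on PCNA and with Rnf20 and Rnf40 on histone H2B, read 408, 406, 456 and 386 in BBB and 1544, 1575, 1597 and 1518 with amanitin, and 365, 424, 496 and 359 in BCB and 1231, 1415, 1369.6 and 1436 with amanitin. Its treated arrays were the higher ones in both kinds, with no overlap. The change was 1.88 ± 0.10 and 1.70 ± 0.10 (adjusted p = 6.19e-14 and 3.65e-13), and 1.33 in BBB and 0.91 in BCB on the hybridization scale, and 0.054 and -0.14 on the poly-A scale. A second probe set of Ube2b went the other way: it averaged 671 in BBB and 477 with amanitin, a change of -0.48 (adjusted p = 0.00229), and -0.84 in BCB (adjusted p = 4.21e-06). Ube2t, which loads ubiquitin on Fancd2 in the Fanconi anaemia pathway, read 659, 647, 739.8 and 684 in BBB and 137, 88.6, 159 and 109 with amanitin, and 643, 544, 583 and 618 in BCB and 166, 125, 129 and 110.1 with amanitin. All treated arrays lay below all untreated ones. Ube2t fell, by a log2 change of -2.35 ± 0.14 in BBB and -2.06 ± 0.14 in BCB (adjusted p = 5.65e-13 and 6.52e-12). Its promoter window is the one with 3 CCAAT boxes, and that of Ube2b the one with 3 E-boxes.

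Of the E2s for ubiquitin-like proteins, Ube2f fell and Ube2z did not pass the test on the deposited scale. Ube2f, which charges cullin Cul5 with NEDD8, averaged 499 ± 65.5 in BBB and 310.4 ± 48.5 with amanitin, and 537 ± 19.5 in BCB and 338 ± 37.4 with amanitin. It fell, with -0.66 ± 0.12 and -0.65 ± 0.12 (adjusted p = 3.51e-05 and 4.37e-05), but the mean over its 4 tested probe sets changed by -0.16 and -0.12 and did not pass (adjusted p = 0.216 and 0.352). Ube2z, which takes ubiquitin or FAT10 from the E1 Uba6, changed by -0.11 ± 0.15 in BBB and -0.065 ± 0.15 in BCB (adjusted p = 0.509 and 0.705), with 95% confidence intervals from -0.42 to 0.19 and from -0.37 to 0.24. A dimmer second probe set of Ube2z was called lower, by -0.51 in BBB and -0.57 in BCB (limma, adjusted p = 0.0157 and 0.0078). The chosen one was called lower on the hybridization scale, at -0.65 and -0.85, and on the poly-A scale, at -1.92 and -1.88.

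The largest fall of all was that of Ube2o, a large enzyme that joins E2 and E3 activity in 1 chain and is known for clearing ribosomal proteins from maturing red cells. It read 672, 711, 510.2 and 622 in BBB and 40.3, 30.6, 38.2 and 45.2 with amanitin. In BCB it read 628, 669.9, 694 and 585 and 51.6, 42.1, 35.4 and 29.6. The treated values lay above the 40th percentile of the treated arrays, 10.8 to 14.1, and below their 75th percentile, 84.1 to 91.2. Ube2o fell, by a log2 change of -3.56 ± 0.14 in BBB and -3.58 ± 0.14 in BCB (adjusted p = 2.84e-16 and 2.5e-16). Of the other large or atypical E2s, 3 of 4 were called higher in both kinds. Ube2q1, an E2 with an extended N-terminal part, averaged 91.8 ± 18.3 in BBB and 238 ± 55.2 with amanitin; it changed by 1.23 ± 0.16 and 1.37 ± 0.16 (adjusted p = 5.5e-07 and 9.67e-08), and by 0.73 and 0.65 on the hybridization scale and -0.45 and -0.30 on the poly-A scale. Its relative Ube2q2 changed by 0.66 and 0.66, and by 0.18 and -0.033 on the hybridization scale and -0.95 and -0.94 on the poly-A scale. Ube2u was dim, and its 0.55 in BBB and 0.85 in BCB became 0.22 and 0.38 on the hybridization scale and -0.58 and -0.20 on the poly-A scale. In BBB the call of Ube2u was lost with no filter (0.55, adjusted p = 0.0513), with a pseudocount of 1 (0.87, adjusted p = 0.056) and without BBB arrays 3 and 4 (0.51, adjusted p = 0.118), and it was lost without untreated array 3, treated array 2 or treated array 3, with changes of 0.51 to 0.53 and adjusted p of 0.0539 to 0.0631. Ube2ql1 was read at 1.9 to 30.4 over all 16 arrays and did not pass.

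The remaining symbols do not stand for an E2, and both were called higher. Ube2cbp read 73.9, 82.7, 85.3 and 90.4 in BBB and 262, 238, 176 and 307 with amanitin; it changed by 1.38 ± 0.18 in BBB and 1.09 ± 0.18 in BCB, and by 0.88 and 0.36 on the hybridization scale and -0.29 and -0.58 on the poly-A scale. Ube2d-ps averaged 70.7 ± 9.45 in BBB and 234 ± 24.2 with amanitin; it changed by 1.53 ± 0.13 and 1.59 ± 0.13, and by 1.04 and 0.87 on the hybridization scale and -0.11 and -0.089 on the poly-A scale. As a copy of Ube2d genes it may share probes with them.

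Because a ratio of 2 genes on the same array depends on the scale of the array only through the pseudocount, ratios within 4 of the roles show which E2s of a role moved apart. The height of a ratio between 2 probe sets has no meaning, and only its change was read. The log2 ratio of Ube2j1 to Ube2j2 was -1.95, -1.75, -1.51 and -1.48 on the BBB arrays and 2.51, 2.36, 2.22 and 2.56 with amanitin. It changed by 4.08 in BBB and 4.23 in BCB, the widest split within the reticulum E2s. The size of this split rests on the brightest probe set of each gene. On the deposited scale the second probe set of Ube2j1 changed by only 0.51 in BBB and 0.54 in BCB. That of Ube2j2 changed by -1.25 and -0.735. The ratio of Ube2b to Ube2t changed by 4.23 and 3.76. The size of this change too rests on the probe set chosen for each gene. The second probe set of Ube2b was the brighter one in untreated BBB, at 671 against 414. It changed by -0.48 in BBB and -0.84 in BCB on the deposited scale. The ratio of Ube2n to its partner Ube2v1 was -0.14, -0.044, 0.24 and 0.077 in BBB and 2.89, 2.27, 2.26 and 2.23 with amanitin. It changed by 2.38 in BBB and 2.23 in BCB, and the ratio of Ube2n to Ube2v2 by 2.24 and 2.51. The ratio of Ube2c to Ube2s changed by -1.44 and -1.97. In each of these pairs the treated and untreated arrays did not overlap.

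No other pairs were tested, and since 70.3% of all genes were called in one direction or the other in BBB and 71.8% in BCB, the count of pairs that passed is not read as particular to E2s. Of 34 such tests, on 17 pairs in each kind, 29 passed an adjusted p of 0.05 in exact two-sided permutation tests: 14 in BBB and 15 in BCB, each with p = 0.0286, the smallest possible here, and an adjusted p of 0.0335 over the 34. The pairs that did not pass were all among genes that fell: Ube2t to Ube2v1 (-0.37 in BBB and -0.19 in BCB), Ube2t to Ube2v2 (-0.51 and 0.086) and, in BBB, Ube2v1 to Ube2v2 (-0.14). In BCB the ratio of Ube2v1 to Ube2v2 changed by 0.28, which passed, but not with a pseudocount of 64 (-0.01), after quantile normalization (0.043) or on the hybridization (0.22) or poly-A scale (0.10). After quantile normalization its change of -0.40 in BBB passed (adjusted p = 0.0335), as did with a pseudocount of 64 its -0.35 and the -0.53 of Ube2t to Ube2v2 in BBB (adjusted p = 0.0324 each). Averaged over each gene's probe sets, Ube2t to Ube2v1 changed by 1.02 in BBB and 0.95 in BCB, the opposite direction, and Ube2t to Ube2v2 by 0.83 and 1.19 (adjusted p = 0.0324 each), while Ube2g1 to Ube2k in both kinds and Ube2b to Ube2n in BCB no longer passed.

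**Figure D3:**
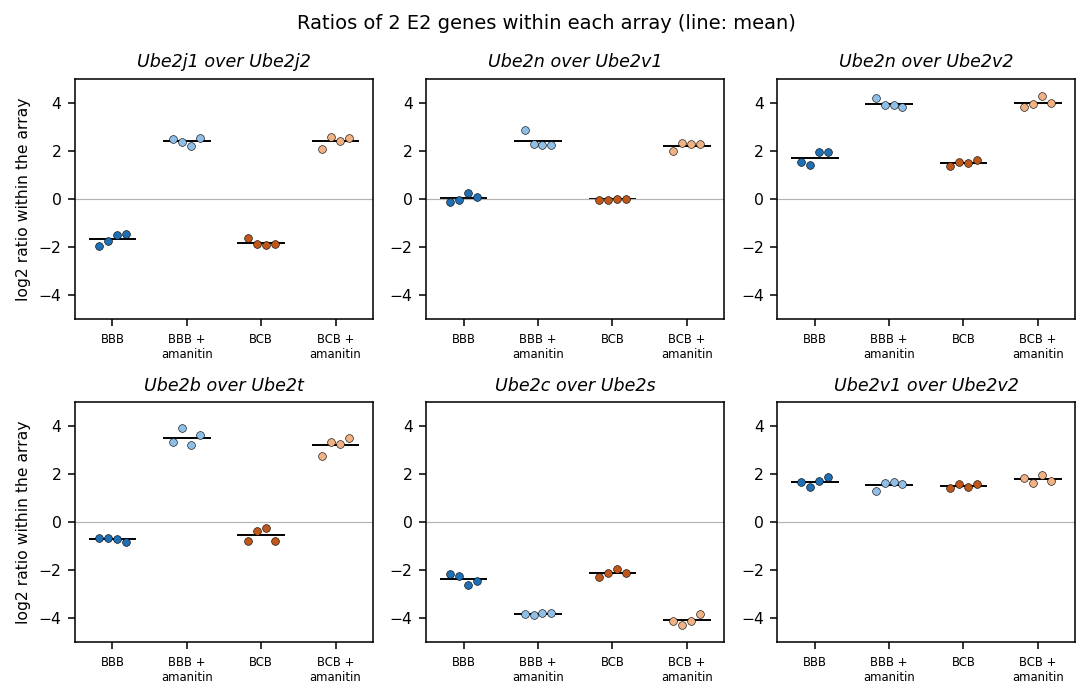
Each point is the log2 ratio of 2 E2 genes on 1 array (y axis), for the 4 arrays of each group, with a line at the mean. The first 5 pairs separate treated from untreated arrays in both kinds, and the ratio of Ube2v1 to Ube2v2 changes by -0.14 in BBB and 0.28 in BCB.

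The scale of the arrays changed the calls of many rises and of no fall. All 9 genes called lower with amanitin were also called lower after quantile normalization and on both control scales, in both kinds. The controls are higher on treated arrays, so both control scales enlarge falls by construction and are no check of them. Of the 17 genes called higher in BBB, 14 were still called higher after quantile normalization and 1, Ube2d2a, was called lower. On the hybridization scale 9 of the 17 were still called higher and 8 were not called, and on the poly-A scale 1 was still higher, 5 were not called and 11 were called lower. Of the 16 in BCB, 13 stayed higher and 1 was lower after quantile normalization, 6 stayed higher and 4 were lower on the hybridization scale, and 1 stayed higher and 10 were lower on the poly-A scale. The genes that were not called on the poly-A scale in both kinds were Ube2b, Ube2j1, Ube2d-ps and Ube2q1.

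**Figure D4:**
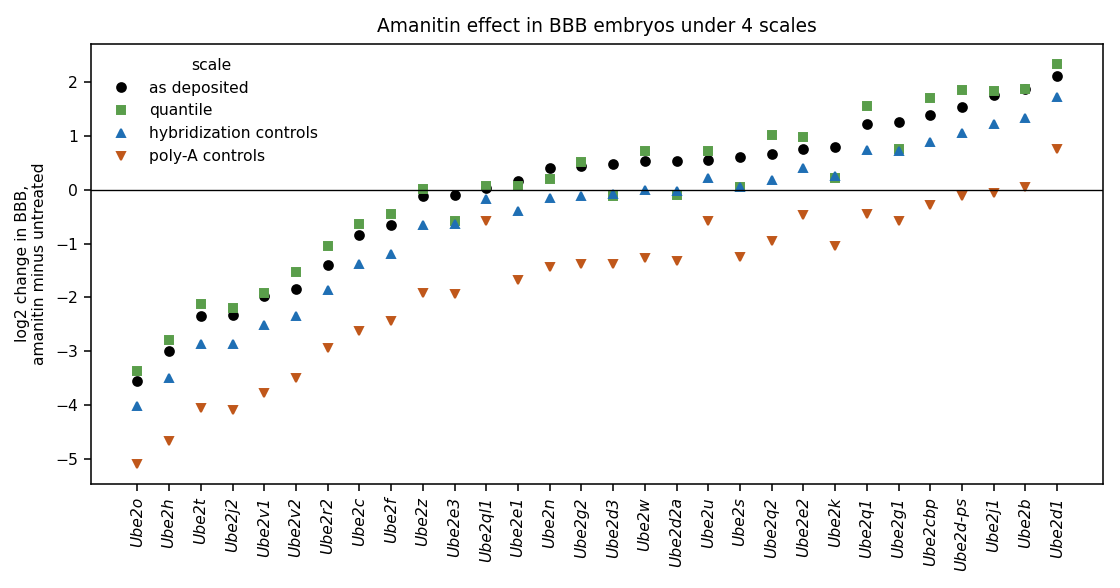
For each of the 30 genes (x axis, ordered by the change on the deposited scale), the log2 change with amanitin in BBB (y axis) is shown under 4 scales. The 9 genes that fell stay below 0 under all of them, and both control scales enlarge falls by construction. On the poly-A scale Ube2d1 (0.76) and Ube2b (0.054) are the only genes above 0.

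For 21 of the 30 genes more than 1 probe set was tested, and these did not always move together. Over the 64 tested probe sets, 30 were called higher and 16 lower in BBB, beside 34.3% and 31.9% of all 31953 tested probe sets, and 30 and 15 in BCB, beside 37.6% and 30.3%. The 7 probe sets of Ube2d3 were all called higher, by 0.42 to 0.87 in BBB on the deposited scale, where the chosen one turned to -1.38 on the poly-A scale. Both probe sets of Ube2v1 fell, with -1.98 and -2.09 in BBB, as did both of Ube2j2, with -2.33 and -1.25. In Ube2t and Ube2r2 the second probe set was dim and did not pass, with 0.32 and -0.044 in BBB. In 4 genes, Ube2b, Ube2d-ps, Ube2k and Ube2w, probe sets were called in opposite directions in BBB, and in BCB so were those of Ube2b, Ube2d-ps and Ube2w. Of the probe sets of Ube2w, the brightest and another changed by 0.52 and 1.31 in BBB, and the third by -1.14. For Ube2k the exception was a dim probe set, at 18.2 in BBB, with -0.54 against 0.80, 1.40 and 1.55 for the brighter ones. The direction given for Ube2b and Ube2w is therefore that of the probe set with the highest mean.

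**Figure D5:**
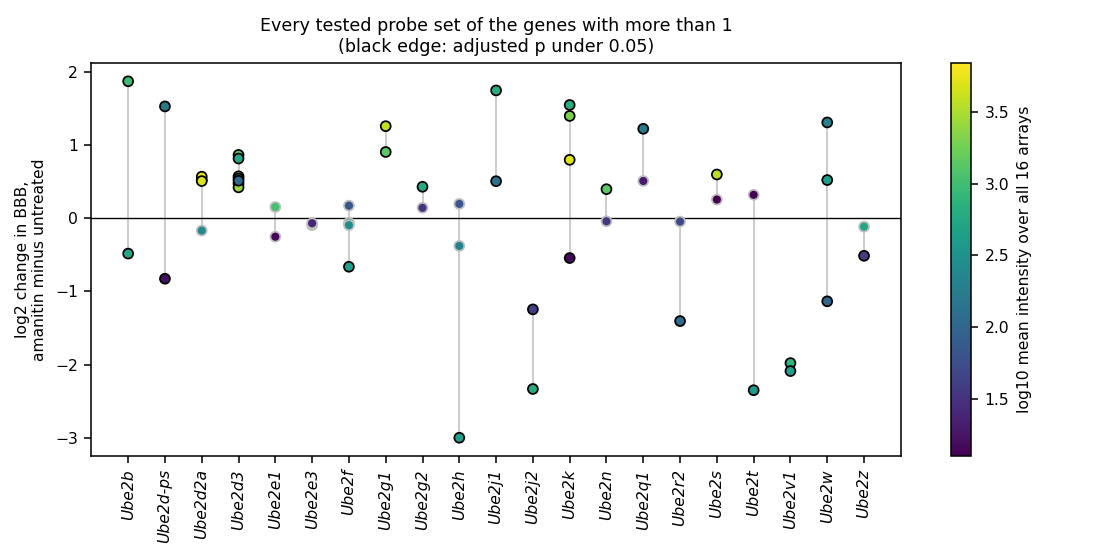
Each point is a tested probe set of a gene with more than 1 (x axis), with its log2 change with amanitin in BBB on the deposited scale (y axis), coloured by its mean intensity; a black edge marks an adjusted p under 0.05. The probe sets of Ube2b, Ube2d-ps, Ube2k and Ube2w are called on both sides of 0, and those of Ube2d3 lie together between 0.42 and 0.87, which the poly-A scale turns to a fall for the brightest.

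Whether the strain of the maternal pronucleus bears on E2 transcripts was asked by comparing BCB with BBB embryos, and no Ube2 gene was called. Untreated, the 30 genes differed between the kinds by -0.19 to 0.33 on the log2 scale, and with amanitin by -0.3 to 0.39. None passed in limma untreated, where 0.655% of all genes were called, with amanitin, where 0.0786% were, or for the difference between the amanitin effects, where 0.255% were. At an unadjusted p under 0.05 there were 1, 4 and 3 genes in these comparisons, and the lowest adjusted p was 0.112, 0.296 and 0.378. The 95% confidence interval of a gene reached, at the median, 0.25 to either side between kinds and 0.36 for the interaction before any adjustment. Differences larger than that also went uncalled, such as 0.39 ± 0.14 for Ube2h with amanitin (adjusted p = 0.296), so the lack of calls with 4 arrays a group does not show that the kinds are alike. The gene nearest to the threshold was Ube2e1, an E2 of the Ube2e class. It read 937, 1014, 905 and 962 on the untreated BBB arrays and 1113, 1159.5, 1238 and 1318 on the BCB arrays, and 1118, 1037, 1063 and 1044 and 1049, 1203, 1045 and 911 with amanitin. The untreated arrays of the kinds did not overlap, and the treated ones did. The difference of BCB from BBB was 0.33 ± 0.088 untreated (adjusted p = 0.112) and -0.024 with amanitin (adjusted p = 0.953), and the interaction -0.36 ± 0.13 (adjusted p = 0.378). Ube2c had the most negative interaction, at -0.45, and Ube2ql1 the highest, at 0.35.

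Genes of the enzymes around the E2s were also described by list, and their counts are to be set beside the 37.1% of all genes called higher and 33.1% lower in BBB, and 39.9% and 31.9% in BCB; nothing particular to a list was read from them. Of 6 tested E1 genes, 4 were called higher and 1 lower in BBB, and 4 and 2 in BCB, with medians of 0.63 and 0.66 beside 0.11 and 0.17 over all genes. Uba6, the E1 that charges Ube2z, averaged 68.4 in BBB and 270.3 with amanitin; its changes were 1.75 ± 0.16 in BBB and 1.17 ± 0.16 in BCB on the deposited scale, 1.26 and 0.46 on the hybridization scale and 0.10 and -0.48 on the poly-A scale. Atg7, the E1 of autophagy, changed by 1.08 and 1.11, and by 0.59 and 0.41 on the hybridization scale and -0.55 and -0.52 on the poly-A scale. Sae1, a subunit of the E1 for SUMO, averaged 975 and 240.1 in BBB, and its changes were -1.94 ± 0.13 in BBB and -1.60 ± 0.13 in BCB. Of 5 tested genes of ubiquitin-like proteins among 12 listed, 2 were called higher and 3 lower in both kinds, with medians of -1.38 and -1.09. Fau, which encodes a ubiquitin-like protein fused to a ribosomal protein, averaged 1085 and 246 in BBB, and its changes were -2.11 ± 0.17 in BBB and -2.28 ± 0.17 in BCB. Sumo3 changed by 0.63 and 0.52, and by 0.077 and -0.29 on the hybridization scale and -1.22 and -1.35 on the poly-A scale. Ufm1 changed by 1.54 and 2.06, and by 0.997 and 1.27 on the hybridization scale and -0.28 and 0.21 on the poly-A scale. Of 8 E2 and E2-like genes with another symbol, 4 were called higher and 3 lower in both kinds. Cdc34, the E2 of SCF ligases and the relative of Ube2r2, averaged 1880.3 and 3156 in BBB; its changes were 0.74 ± 0.077 in BBB and 0.67 ± 0.077 in BCB on the deposited scale, 0.19 and -0.14 on the hybridization scale and -1.11 and -1.20 on the poly-A scale. Atg3, the E2 of autophagy, averaged 1325 and 471 in BBB, and its changes were -1.45 ± 0.11 in BBB and -1.43 ± 0.11 in BCB.

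Of 18 genes of the anaphase-promoting complex and its regulators, which work with Ube2c and Ube2s, 6 were called higher and 9 lower in BBB, and 5 and 9 in BCB, with medians of -0.39 and -0.36. The subunit Anapc7 averaged 2176 in BBB and 138 with amanitin, and its changes were -3.83 ± 0.12 in BBB and -4.32 ± 0.12 in BCB. The largest subunit, Anapc1, averaged 1052 and 2294; its changes were 1.12 ± 0.085 in BBB and 1.17 ± 0.085 in BCB on the deposited scale, 0.57 and 0.37 on the hybridization scale and -0.73 and -0.68 on the poly-A scale. Of 18 cullins, RING subunits and neddylation factors, 6 were called higher and 7 lower in BBB, and 6 and 6 in BCB, with medians of -0.15 and -0.14. Cul3, a scaffold of cullin-RING ligases, averaged 2569.8 and 219.7 in BBB, and its changes were -3.46 ± 0.10 in BBB and -3.34 ± 0.10 in BCB. Dcun1d1, which helps to load NEDD8 on cullins, averaged 480.4 and 1172; its changes were 1.26 ± 0.097 in BBB and 1.27 ± 0.097 in BCB on the deposited scale, 0.71 and 0.47 on the hybridization scale and -0.57 and -0.57 on the poly-A scale. Of 11 RBR ligases, 4 were called higher and 3 lower in BBB, and 5 and 3 in BCB, with a median near 0 in both. Arih2, which works with neddylated Cul5, averaged 2493 and 164, and its changes were -3.78 ± 0.13 in BBB and -3.99 ± 0.13 in BCB. Rnf19a changed by 1.17 and 1.06, and by 0.62 and 0.26 on the hybridization scale and -0.67 and -0.80 on the poly-A scale.

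Among 9 DNA damage ligases, the partners of Ube2b, Ube2n and Ube2t, 4 were called higher and 3 lower in BBB, and 3 and 3 in BCB, with medians of 0.094 and -0.1. Traip, a ligase of stalled replication forks, averaged 398 in BBB and 33.5 with amanitin, and 290.4 in BCB and 53.3 with amanitin. It fell, with -3.09 ± 0.14 in BBB and -2.15 ± 0.14 in BCB, and the difference between the kinds passed (interaction 0.95 ± 0.20, adjusted p = 0.047), the 1 such call among the lists. This value is close to the threshold, and 0.255% of all genes had such a call. Upward calls of this kind numbered 10 over all genes, but 3 after quantile normalization and 1 with a pseudocount of 1. The call of Traip under those settings is not given here. Rnf20, which works with Ube2b on histone H2B, averaged 1212 and 374 in BBB, and its changes were -1.65 ± 0.093 in BBB and -1.70 ± 0.093 in BCB. Hltf, which extends chains on PCNA, changed by 0.61 and 0.56, and by 0.095 and -0.19 on the hybridization scale and -1.11 and -1.17 on the poly-A scale. Rnf168, which marks chromatin at breaks, changed by 0.57 and 0.60, and by 0.03 and -0.20 on the hybridization scale and -1.25 and -1.24 on the poly-A scale. Of 10 genes of degradation at the reticulum among 11 listed, 5 were called higher and 3 lower in BBB, and 6 and 3 in BCB, with medians of 0.17 and 0.4. Rnf139, a membrane ligase, averaged 364 and 63.4 in BBB, and its changes were -2.29 ± 0.18 in BBB and -2.27 ± 0.18 in BCB. Derl3, a channel subunit, changed by 1.30 and 1.47, and by 0.76 and 0.69 on the hybridization scale and -0.51 and -0.35 on the poly-A scale. Of 11 SUMO ligases and proteases, 4 were called higher and 5 lower in BBB, and 4 and 4 in BCB, with medians of -0.091 and 0.084. The protease Senp7 averaged 343 in BBB and 2.58 with amanitin, and 305 and 2.33 in BCB. It fell (adjusted p = 1.16e-16 and 1.79e-16), and no size is given, since the treated means lie under the 40th percentile of the treated arrays, 10.8 to 14.1. Its relative Senp1 averaged 450.4 and 1773; its changes were 1.94 ± 0.10 in BBB and 2.19 ± 0.10 in BCB on the deposited scale, 1.40 and 1.40 on the hybridization scale and 0.12 and 0.35 on the poly-A scale.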

How the data were processed

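The arrays were 16 one-colour arrays of total RNA, 4 per group of two-cell embryos. The deposited table holds linear intensity values per probe set, which the authors had scaled; which software was used is not given in the sources used here. The trimmed means (2% off each end) are equal on all arrays and other percentiles differ, so the deposited values were not quantile normalized. Arrays give no counts, and their number limits the precision: the median SE of a difference between groups was 0.12 for the members on the log2 scale. Values were taken as log2(value + 16) of the deposited intensities. Tests were run on probe sets that reached the 40th percentile of the array on 4 or more arrays, which left 31953 probe sets and 15274 genes. The tested probe set with the highest mean stood for its gene. One mean per group was fitted over all 16 arrays with limma 3.58.1 (R 4.3.3), using moderated variances with an intensity trend; p-values were adjusted by Benjamini-Hochberg over the 31953 probe sets, with a threshold of 0.05, in each of 5 contrasts. The fit was tested on simulated data. Ratios within an array and control probe sets were compared with exact two-sided permutation tests. No 2 arrays held identical values, and the labels give no batch. Genes were described in full by a rule: in each amanitin contrast the 6 largest falls and rises among called genes whose groups do not overlap, and Ube2c, Ube2s, Ube2n, Ube2v1, Ube2v2, Ube2d1, Ube2d3, Ube2b, Ube2t and Ube2k where tested; from each partner list, the called member of smallest adjusted p, upward and downward. Other names complete the account of the members. The members, lists and tests were chosen with earlier results of these data known. Promoter windows are RefSeq's. Alternatives were 3 other scales, pseudocounts of 1 and 64, no filter and the 60th percentile, an average over each gene's probe sets, the groups compared alone, no intensity trend, a block for the replicate number and leaving out each array; leaving out BBB arrays 3 and 4, and the alternatives of the ratios, were chosen after seeing the data.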

Additional observations from a re-analysis of the deposited data

Results flagged for a closer look

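Over 120 groups of 4 arrays, 30 genes in 4 groups, 6 held an array whose gap to the nearest of the others, as a share of the whole range on the scale of log2(value + 16), was above Dixon's 95% critical value. That is the share chance gives, about 1 in 20. In 3 of the 6 it was array 1 of BBB with amanitin, and low. There Ube2v1 read 214 against 315 to 335 on the other 3 arrays, a gap of 0.861 of the range, Ube2v2 77.5 against 93.7 to 97.1 on the other 3 arrays, a gap of 0.84 of the range, and Ube2r2 40.2 against 54.3 to 57.4 on the other 3 arrays, a gap of 0.838 of the range. Without that array the changes in BBB were -1.84 for Ube2v1, -1.78 for Ube2v2 and -1.32 for Ube2r2, and all were still called lower. Array 3 of untreated BBB was low for Ube2u, at 15.1 against 18.1 to 18.6 on the other 3 arrays, a gap of 0.864 of the range. Array 4 of untreated BCB was low for Ube2e2, at 17.7 against 23 to 23.9 on the other 3 arrays, a gap of 0.865 of the range. Array 4 of BCB with amanitin was high for Ube2d2a, at 8515 against 7780.3 to 7898 on the other 3 arrays, a gap of 0.834 of the range.

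Probe sets outside the comparisons also read higher with amanitin on the deposited scale. Of 4 probe sets annotated with 5 symbols each, Ube2l3 among them, one averaged 29.4 in BBB and 137 with amanitin, and 36.9 in BCB and 134 with amanitin. Another averaged 38.5 and 79.2 in BBB, and 49 and 111 in BCB. They cannot be given to 1 gene. The untested probe set of Ube2d2b averaged 0.6 in BCB and 1.5 with amanitin, both at the dim end of the arrays.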

How the results depend on the processing

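The choice that moved most was the scale of the arrays, and every gene called lower on the deposited scale was called lower on all of the scales tried. Both control scales enlarge falls by construction, so for the falls only quantile normalization was a check. On the hybridization scale the calls became 9 higher in BBB, and 6 higher and 17 lower in BCB, where 21% of all genes were higher in BBB and 15% and 48.4% higher and lower in BCB. On the poly-A scale they became 1 higher and 24 lower in BBB and 1 and 23 in BCB, where 82.6% and 81.3% of all genes were lower. Listed next are log2 changes that turned negative and were called on the deposited scale, the other scale or both. After quantile normalization these were Ube2d2a -0.10 and Ube2d3 -0.11 in BBB and Ube2d2a -0.11 and Ube2d3 -0.088 in BCB. On the hybridization scale they were Ube2d2a -0.028, Ube2d3 -0.077, Ube2e1 -0.39, Ube2g2 -0.11, Ube2n -0.15 and Ube2w -0.01 in BBB and Ube2d2a -0.28, Ube2d3 -0.33, Ube2e2 -0.018, Ube2g2 -0.66, Ube2n -0.43, Ube2q2 -0.033, Ube2s -0.12 and Ube2w -0.44 in BCB. On the poly-A scale they were Ube2cbp -0.29, Ube2d-ps -0.11, Ube2d2a -1.33, Ube2d3 -1.38, Ube2e1 -1.67, Ube2e2 -0.46, Ube2g1 -0.59, Ube2g2 -1.38, Ube2j1 -0.054, Ube2k -1.05, Ube2n -1.44, Ube2q1 -0.45, Ube2q2 -0.95, Ube2ql1 -0.58, Ube2s -1.25, Ube2u -0.58 and Ube2w -1.27 in BBB and Ube2b -0.14, Ube2cbp -0.58, Ube2d-ps -0.089, Ube2d2a -1.34, Ube2d3 -1.39, Ube2e2 -0.69, Ube2g1 -0.71, Ube2g2 -1.69, Ube2j1 -0.17, Ube2k -0.96, Ube2n -1.49, Ube2q1 -0.30, Ube2q2 -0.94, Ube2s -1.19, Ube2u -0.20 and Ube2w -1.45 in BCB. The cause of the higher controls was not tested. No within-array ratio changed direction with the scale of an array, but the change of Ube2v1 to Ube2v2 in BCB was -0.01 with a pseudocount of 64, and averaged over each gene's probe sets Ube2t to Ube2v1 changed by 1.02 in BBB and 0.95 in BCB and Ube2t to Ube2v2 by 0.83 in BBB and 1.19 in BCB. All other counts of calls (271 values) stayed within 1.5 times. These include the counts between the kinds and for the interaction, which were 0 in every setting, so 271 overstates how many counts above 0 held. In the amanitin contrasts 15 to 17 genes were higher and 9 or 10 lower whichever array was left out. Calls that 1 array decided were those of Ube2u in BBB and Ube2w in BCB, and Ube2e1 and Ube2e3 in BCB became called: Ube2e1 at -0.24 (adjusted p = 0.0346) without BCB array 1 and -0.27 (0.0139) without treated BCB array 2, and Ube2e3 at -0.19 (0.0264) without treated BCB array 4. Ube2e1 in BCB was also called lower with a pseudocount of 1 (-0.20, 0.0452) and a filter at the 60th percentile (-0.20, 0.0401). Averaged over its probe sets, Ube2g2 in BCB was called higher (0.27, 0.0168). Same-numbered arrays did not deviate together (24 correlations, -0.087 to 0.107, median -0.005). A pairing that leaves little shared deviation would not be seen this way, and the labels state none, so whether samples were paired is not known. With the number as a replicate block the calls were 17 higher and 9 lower in BBB, 16 and 9 in BCB, and 0 in the other contrasts. Over all genes the amanitin calls were then 5632 and 5040 in BBB and 6045 and 4880 in BCB. Dim genes such as Ube2u, Ube2ql1 and Ube2e2 are limited by the signal over background.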

Other observations

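The brightest of the 4 probe sets that carry Ube2l3 among 5 symbols fell, while the next brightest did not. Ube2l3 encodes an E2 for HECT and RBR ligases. The brightest probe set averaged 1023 ± 133 (SD, n = 4) in BBB and 109.8 ± 24.0 with amanitin, and 1092 ± 109.9 in BCB and 108 ± 7.67 with amanitin. Its log2 changes were -3.06 and -3.16 (limma, adjusted p = 9.6e-16 and 5.2e-16). The next brightest changed by 0.59 in BBB (adjusted p = 0.00519) and by 0.32 in BCB, which did not pass (adjusted p = 0.11), on the deposited scale. Which of the 5 annotated genes each probe set reads was not tested.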
